A study of Homo sapiens with 20 samples.

Results

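The genes described here are 9 kinases that run mitosis, PLK1, PLK4, AURKA, AURKB, BUB1, BUB1B, TTK, NEK2 and CDK1, together with CCNB1, which codes for cyclin B1, the partner that activates CDK1. They were taken from the expression table by symbol, and each of the 10 symbols had 1 row among its 36076 genes. The samples were human lung cancer cell lines treated with decitabine (DAC), a cytidine analog that is built into DNA and depletes DNA methyltransferases. The DAC group received 100 nM DAC daily for 72 hours and then grew for 3 days without the drug, and the Mock group received PBS in its place. Messenger RNA was sequenced in H1299, CL1-5, CL1-0, PC9, A549 and H1792, with 1 Mock and 1 DAC library per line (12 libraries). Accessible chromatin was profiled by Omni-ATAC-seq in 4 of these lines, H1299, CL1-5, PC9 and A549, again with 1 library per line and treatment (8 libraries). No transgene or edited allele was given for any group. CL1-5 is an invasive subline of CL1-0, so that these lines share an origin. The study compared DAC with Mock over 5 lines, and H1792 is given beside them.

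Entry into mitosis is driven by CDK1 bound to cyclin B1. PLK1 and AURKA promote that step and build the spindle poles, PLK4 starts the duplication of centrioles, and NEK2 helps the centrosomes to part. AURKB corrects the attachment of chromosomes to the spindle as the enzyme of the chromosomal passenger complex, while TTK (also called MPS1), BUB1 and BUB1B (the protein BUBR1) run the spindle assembly checkpoint, which holds a cell in metaphase until all chromosomes are attached. The transcripts of these genes are low in G1 and peak in G2 and M, so that in a culture their level follows the share of dividing cells as well as the RNA per cell. In bulk RNA fewer cells in mitosis and less RNA per cell cannot be told apart.

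In the GRCh37 build, GENCODE places NEK2 on chromosome 1 from 211831999 to 211848972 and BUB1 on chromosome 2 from 111395105 to 111435640, both on the minus strand. PLK4 lies on chromosome 4 from 128802048 to 128820379, CCNB1 on chromosome 5 from 68462962 to 68474072, TTK on chromosome 6 from 80713604 to 80752244 and CDK1 on chromosome 10 from 62538089 to 62554610, all on the plus strand. BUB1B on chromosome 15 (40453224 to 40513324) and PLK1 on chromosome 16 (23688977 to 23701688) are also on the plus strand. AURKB on chromosome 17 (8108051 to 8113918) and AURKA on chromosome 20 (54944445 to 54967393) are on the minus strand. Promoters of genes that peak in G2 and M are known for a short element near the start site, TTTGAA or the related TTCGAA, to which the DREAM and MuvB complexes bind, often with CCAAT boxes upstream, which bind NF-Y. RefSeq promoter windows of 300 bases, from 250 before to 50 after a start site, were given for 8 of the 10 genes, PLK1, PLK4, AURKB, BUB1, BUB1B, NEK2, CDK1 and CCNB1, in 12 windows. Each window (RefSeq, GRCh38.p14) matched GRCh37 exactly at 1 place.

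The 6 stretches of 130 bases printed here run from 110 bases before to 20 bases after a start site and show the promoter letters that lie under the ATAC peaks. They are written 5′ to 3′ on the strand of the gene, and capitals mark TTTGAA and its variant TTCGAA as well as CCAAT, on either strand (CCAAT on the other strand reads ATTGG). Where a gene had several windows, the one with most matches in its stretch was taken. For CDK1 this was the downstream of 2 start sites. The stretches of AURKB, with 0 matches, and PLK4, with 1, are not printed.
PLK1: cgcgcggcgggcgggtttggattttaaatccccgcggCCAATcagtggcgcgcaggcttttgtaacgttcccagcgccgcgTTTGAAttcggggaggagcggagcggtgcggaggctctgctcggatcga
CDK1: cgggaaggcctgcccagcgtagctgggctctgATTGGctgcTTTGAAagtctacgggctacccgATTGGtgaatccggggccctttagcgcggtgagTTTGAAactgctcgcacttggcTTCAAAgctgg
CCNB1: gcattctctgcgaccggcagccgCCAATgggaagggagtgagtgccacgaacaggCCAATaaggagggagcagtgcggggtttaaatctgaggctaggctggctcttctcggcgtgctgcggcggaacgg
BUB1: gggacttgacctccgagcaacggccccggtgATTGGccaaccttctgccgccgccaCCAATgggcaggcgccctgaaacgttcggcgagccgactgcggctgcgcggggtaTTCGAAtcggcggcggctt
BUB1B: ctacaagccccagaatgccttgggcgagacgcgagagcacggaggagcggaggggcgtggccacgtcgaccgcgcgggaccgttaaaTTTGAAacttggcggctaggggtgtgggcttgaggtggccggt
NEK2: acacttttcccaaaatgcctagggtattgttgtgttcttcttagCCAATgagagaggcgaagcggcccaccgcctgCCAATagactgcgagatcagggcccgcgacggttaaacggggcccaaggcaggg
The stretches lie in GRCh37 at chr16:23690100-23690229 for PLK1, chr10:62538126-62538255 for CDK1, chr5:68462867-68462996 for CCNB1, chr2:111435621-111435750 for BUB1, chr15:40453160-40453289 for BUB1B and chr1:211848944-211849073 for NEK2.

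Positions are counted from the start site, with negative numbers upstream, and give the first base of a match. PLK1 had TTTGAA at -29 and CCAAT at -73. CDK1 had TTTGAA at -69, at -13 and, on the other strand, at 10, and CCAAT on the other strand at -78 and -46. BUB1 had the TTCGAA variant at 2, with CCAAT at -54 and, on the other strand, at -79. BUB1B had TTTGAA at -23 and no CCAAT in its window. NEK2 had CCAAT at -66 and -34 and CCNB1 at -87 and -55, and neither had one of the 6-base elements. AURKB had CCAAT on the other strand at -129 from 1 start site and at -153 from another, and no 6-base element. PLK4 had TTTGAA on the other strand at 39 from 1 start site and CCAAT on the other strand at -86 from another. Searched on both strands over the whole 300 bases, TTTGAA or TTCGAA was found in 6 of the 12 windows (5 of the 8 genes) and in 16.4% of all 35116 windows of the table. CCAAT was found in 9 of the 12 windows (7 genes) and in 34.6% of all windows. A letter match is a description and not a bound site.

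The mRNA libraries held 22234485 to 25303899 reads on genes in 5 lines, and 59735913 (Mock) and 52634234 (DAC) in H1299, where 81.9% to 85.5% of low counts were even, so that its reads were halved before any counting error was computed. Levels are FPKM as deposited by the authors, which are scaled to gene length and to a size factor of each library. They may be compared between genes. In A549 the size factor was 0.777 in Mock and 0.917 in DAC, at 24686736 and 24720109 reads on genes. Equal reads in A549 thus gave a lower FPKM after DAC. Between 310 and 10608 reads stood behind each value of the 10 genes, with those of H1299 halved. Of the epithelial markers, KRT8 and KRT18 were at 24.6 FPKM or more in all libraries but those of CL1-0, where KRT8 was at 0.15 FPKM in Mock and 1.05 after DAC and KRT18 at 0.12 and 0.92. The other 3 epithelial markers went against this: KRT19, EPCAM and CDH1 were at 0.0150, 0.0555 and 0.0113 FPKM in H1299 Mock, at 0.76, 0.13 and 0.48 in CL1-5 Mock and at 0.56 or less in both libraries of CL1-0. The leukocyte markers PTPRC and CD3E were at 0.0759 FPKM or less in every library. BUB1B-PAK6, a readthrough gene that overlaps BUB1B, has a row of its own in the table, so that reads of shared exons may be split between them.

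All 10 genes were expressed in all 12 libraries, and the extremes of their order were shared. CCNB1 was the highest in 12 of 12 libraries, with 114 ± 28.6 FPKM in Mock (mean ± SD over 6 lines) and 109.9 ± 44 after DAC. The Aurora kinases followed, with AURKB at 53.7 ± 30.03 and AURKA at 51.1 ± 10.4 FPKM in Mock. Next came CDK1 at 30.8 ± 11.5 and PLK1 at 30.5 ± 7.45, then BUB1 at 22.7 ± 5.45, NEK2 at 20.2 ± 7.75 and BUB1B at 18.8 ± 4.97 FPKM. TTK (9.76 ± 2.27) and PLK4 (6.70 ± 2.45) were lowest, PLK4 in 12 of 12 libraries. Of the 9 neighbouring pairs in this order, CCNB1 over AURKB, BUB1B over TTK and TTK over PLK4 had the same direction in 6 of 6 lines (exact sign-flip permutation test, two-sided, p = 0.03125, the smallest that 6 lines allow). None of the 9 pairs passed after Benjamini-Hochberg adjustment of these exact permutation values (lowest adjusted p = 0.0938). The pairs were formed from the mean levels of these same Mock libraries, so the permutation values cannot check the order. AURKB was above AURKA in 2 of 6 lines, and CDK1 above PLK1 and NEK2 above BUB1B in 3 of 6. AURKB varied most between lines, by 5.74-fold in Mock from 17.9 FPKM in H1792 to 103 in CL1-0, and AURKA least, by 1.84-fold.

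**Figure D1:**
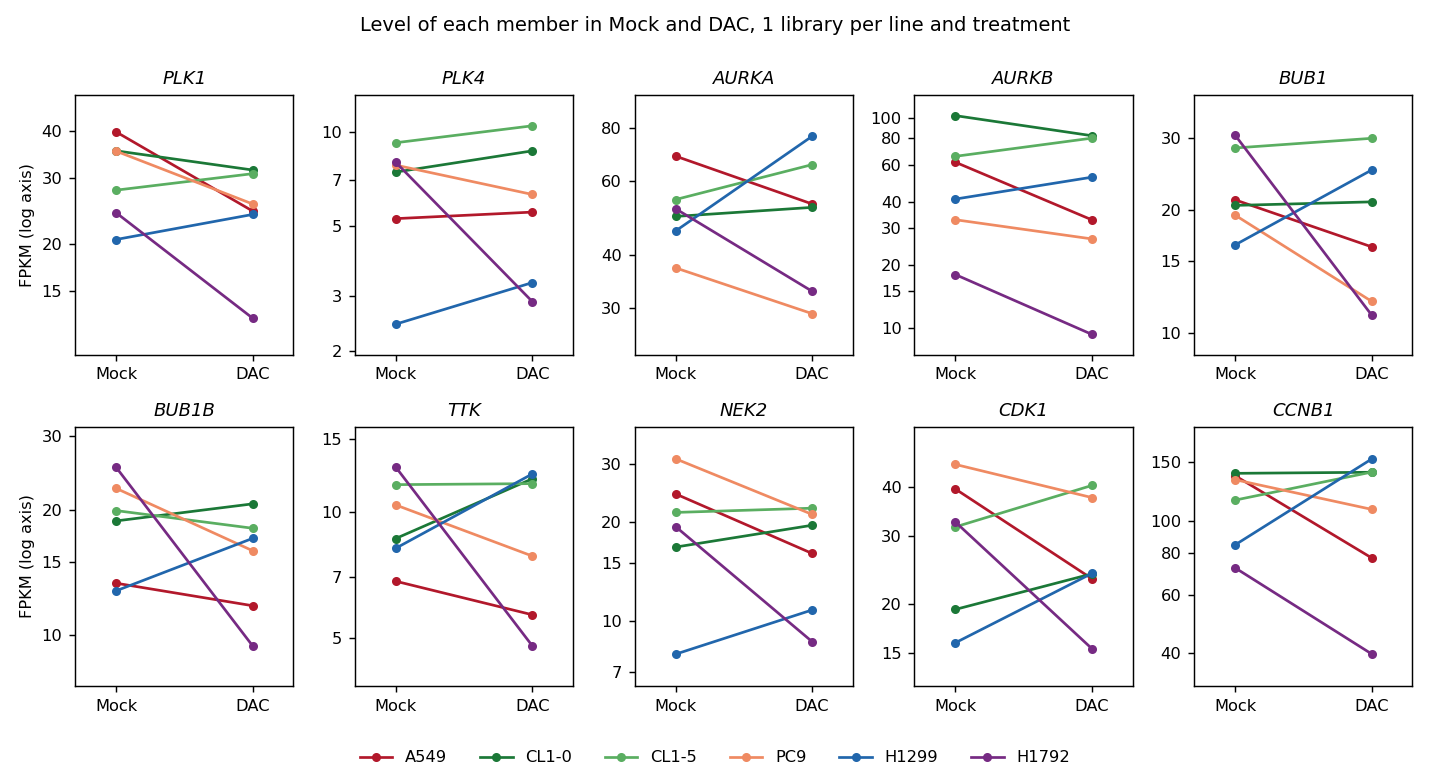
FPKM of each of the 10 genes (log axis, scaled per panel) in Mock and DAC, with 1 point per library and 1 line per cell line. H1792 is lower after DAC in every panel, H1299 is higher in every panel, and A549 is lower in all but PLK4.

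The difference after DAC had another direction in different lines, and within a line the genes went mostly together. H1299 had 10 of 10 genes higher, at a median log2 fold change of 0.51, where 51.2% of the 13363 genes whose mean FPKM was 1 or more were higher and 42.7% lower. CL1-5 and CL1-0 showed smaller differences, with 9 and 8 of 10 genes higher and medians of 0.16 and 0.10, beside 51.7% and 45.4% of all genes higher and 47.6% and 53.2% lower. PC9 had 10 of 10 lower at a median of -0.38 (all genes 50% lower and 48.7% higher). A549 had 9 of 10 lower at a median of -0.49, with PLK4 as the exception (all genes 51.1% lower and 48.3% higher). H1792 had 10 of 10 lower at a median of -1.12 (all genes 47.6% lower and 51.4% higher). All lists of values that follow keep this order of lines, from the highest to the lowest median.

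Of the 60 log2 fold changes 28 were above 0 and 32 below. The 95% counting interval excluded 0 for 55 of them (exact conditional interval of the recovered reads, which covers counting error only). The exceptions were PLK4 in A549, BUB1 and CCNB1 in CL1-0, and TTK and NEK2 in CL1-5. No such share of all genes is given here, so the 55 cannot be read as particular to these genes. With 1 library per line and treatment the change within a line has no replicate check, and the difference between lines was not tested.

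**Figure D2:**
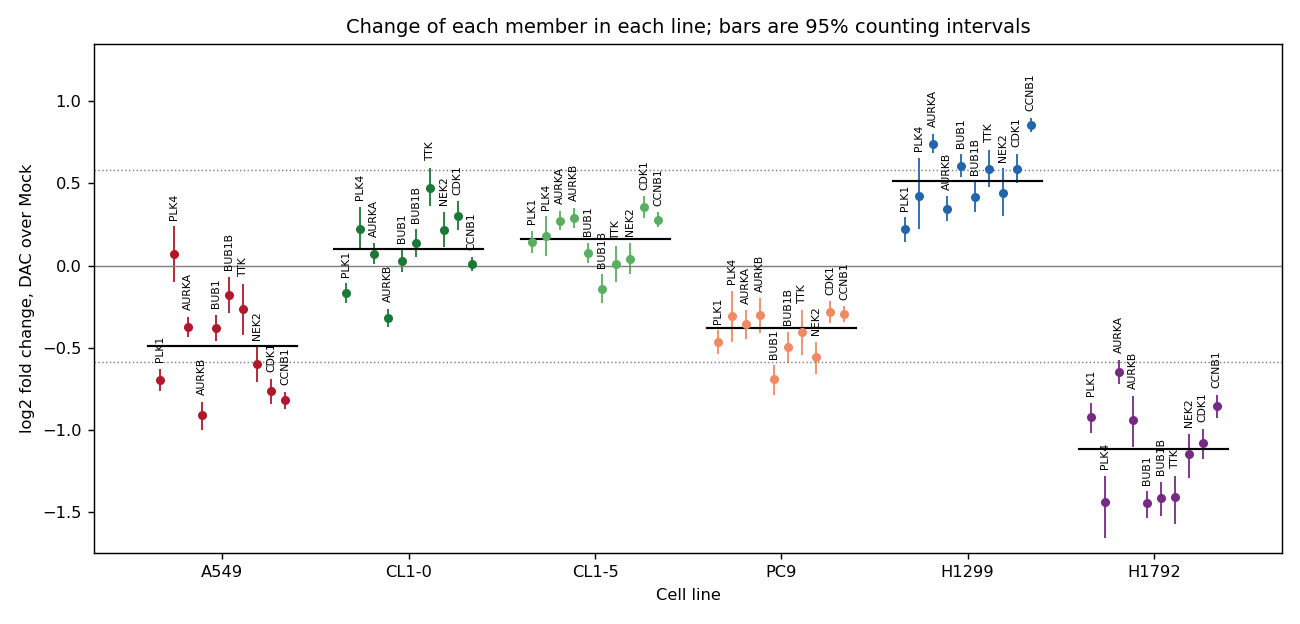
Log2 fold change of FPKM, DAC over Mock, of each gene in each line. Bars are 95% counting intervals, the black line is the median of the 10 genes, and dotted lines mark a 1.5-fold change. All 10 genes lie below 0 in PC9 and H1792 and above 0 in H1299.

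Counted at 1.5-fold or more, 10 of 10 genes were lower in H1792, where 13.4% of all genes were lower by that much and 16.5% higher. In A549 5 of 10 were lower (all genes 19.7% lower, 19.8% higher), namely PLK1, AURKB, NEK2, CDK1 and CCNB1, but 0 of 10 were after rescaling to a common sum or quantile normalization, and 3 of 10 after centring by gene length. In H1299 5 of 10 were higher (all genes 15.8% higher, 11.1% lower), namely AURKA, BUB1, TTK, CDK1 and CCNB1, with 5 on the common sum, 2 after quantile normalization and 2 after centring by length. The 10 of H1792 passed under all 3 of these scalings. In PC9 BUB1 alone was lower by that fold (all genes 5.37% lower, 11.7% higher), and none was on the common sum. None of the 10 reached it in CL1-0 (all genes 8.11% higher, 4.39% lower) or in CL1-5 (9.44% higher, 7.01% lower), although TTK did in CL1-0 on the common sum (0.65). At a limit of 2-fold 6 values were left, all in H1792, those of PLK4, BUB1, BUB1B, TTK, NEK2 and CDK1.

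CDK1, the kinase that starts mitosis, stood in Mock at 15.9 in H1299, 31.6 in CL1-5, 19.4 in CL1-0, 45.9 in PC9, 39.6 in A549 and 32.6 in H1792 (FPKM). After DAC the same lines held 24, 40.5, 23.9, 37.7, 23.3 and 15.4 FPKM. The lines that were highest in Mock, PC9, A549 and H1792, were those in which CDK1 was lower after DAC, and the other 3 lines were higher. The change is computed from the same Mock library, so Mock level and change are not independent. For CCNB1 and AURKB H1792 was the lowest line in Mock and was still lower after DAC (-0.86 and -0.94 in log2). The log2 fold changes of CDK1 were 0.59, 0.35, 0.30, -0.28, -0.77 and -1.08. In CL1-5 and CL1-0 the log2 fold change of CDK1 was above the median of the 10 genes.

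CCNB1, its cyclin, was in Mock at 84.7 in H1299, 115 in CL1-5, 139 in CL1-0, 133 in PC9, 137 in A549 and 72.3 in H1792 (FPKM). After DAC it was at 153, 140.2, 140.1, 108, 77.5 and 39.9 FPKM. H1299, the second lowest line in Mock, was thus the highest after DAC, and its log2 fold change of 0.86 (95% counting interval 0.81 to 0.90) was the largest increase among the 60 values. H1792 and A549 differed by nearly the same amount in the other direction, -0.86 and -0.82, while CL1-0 was level at 0.01 (-0.03 to 0.05). CDK1 and CCNB1 had the same sign in 6 of 6 lines.

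PLK1, which acts from the G2/M transition to cytokinesis, stood in Mock at 20.6 in H1299, 27.8 in CL1-5, 35.4 in CL1-0, 35.3 in PC9, 39.8 in A549 and 24.3 in H1792 (FPKM). After DAC the values were 24, 30.8, 31.5, 25.6, 24.5 and 12.7 FPKM. Without H1792 the DAC values lay closer together than the Mock values, with an SD of 3.58 against 7.58 FPKM over 5 lines. PLK1 itself was lower in 4 lines and higher in 2, with log2 fold changes of 0.22, 0.14, -0.17, -0.46, -0.70 and -0.92. Its median over lines, -0.32, was the lowest of the 10 genes, and in CL1-0 it was lower where the median of the 10 was higher.

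PLK4, the centriole kinase, was in Mock at 2.44 in H1299, 9.22 in CL1-5, 7.44 in CL1-0, 7.83 in PC9, 5.29 in A549 and 7.99 in H1792 (FPKM). After DAC its level was 3.31, 10.4, 8.69, 6.31, 5.55 and 2.88 FPKM. It was the one gene that was not lower in A549, where its log2 fold change of 0.07 had an interval of -0.10 to 0.24. In H1792 it was 2.71-fold lower, with 888 reads in Mock and 310 after DAC. PLK4 had the highest median over lines of the 10 genes, 0.12.

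AURKA, which matures centrosomes and activates PLK1, was in Mock at 45.7 in H1299, 54.2 in CL1-5, 49.4 in CL1-0, 37.4 in PC9, 68.6 in A549 and 51.6 in H1792 (FPKM). After DAC it stood at 76.4, 65.5, 51.9, 29.1, 52.9 and 32.9 FPKM. The H1299 value after DAC was above that of every other library, and with a log2 fold change of 0.74 AURKA was second to CCNB1 in that line. In H1792 AURKA was the least lowered of the 10 genes, at -0.65.

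AURKB, the passenger complex kinase, was in Mock at 41.1 in H1299, 65.7 in CL1-5, 103 in CL1-0, 32.7 in PC9, 61.7 in A549 and 17.9 in H1792 (FPKM). With DAC it stood at 52.3, 80.3, 82.5, 26.5, 32.7 and 9.28 FPKM. CL1-0 and CL1-5 were the highest and PC9 and H1792 the lowest in both groups, and A549 and H1299 exchanged places between them. A549 and CL1-0 each had their lowest log2 fold change of the 10 genes for AURKB, -0.91 and -0.32.

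The checkpoint kinases spanned a wide range of changes, as PLK4 did (1.86 in log2, against 1.83 for BUB1B). H1792 was at the low end for them, as it was for all 10 genes. BUB1 was in Mock at 16.4 in H1299, 28.3 in CL1-5, 20.5 in CL1-0, 19.4 in PC9, 21.2 in A549 and 30.4 in H1792 (FPKM). DAC libraries held 25, 29.9, 20.9, 12, 16.3 and 11.1 FPKM. H1792 went from the highest Mock value to the lowest DAC value, 2.73-fold lower, and PC9 had its largest decrease for BUB1, at a log2 fold change of -0.69 (-0.79 to -0.61). Highest less lowest line, the BUB1 log2 fold changes spanned 2.05, the widest of the 10 genes.

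BUB1B was in Mock at 12.8 in H1299, 19.9 in CL1-5, 18.8 in CL1-0, 22.5 in PC9, 13.3 in A549 and 25.3 in H1792 (FPKM). The DAC libraries had it at 17.1, 18.1, 20.7, 15.9, 11.8 and 9.43 FPKM. It was the only one of the 10 genes that was lower in CL1-5, at -0.14 (-0.23 to -0.05), and of the 9 genes that were lower in A549 it differed least, at -0.18. TTK, which recruits the other checkpoint kinases to kinetochores, was in Mock at 8.20 in H1299, 11.7 in CL1-5, 8.65 in CL1-0, 10.4 in PC9, 6.83 in A549 and 12.8 in H1792 (FPKM). In the DAC group it was at 12.4, 11.7, 12, 7.85, 5.67 and 4.78 FPKM. Its log2 fold change of 0.47 (0.36 to 0.59) was the largest increase in CL1-0. In H1792 BUB1, PLK4, BUB1B and TTK had log2 fold changes of -1.45, -1.44, -1.41 and -1.41, all below those of the other 6 genes.

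NEK2, the centrosome kinase, was in Mock at 7.94 in H1299, 21.4 in CL1-5, 16.8 in CL1-0, 31.1 in PC9, 24.3 in A549 and 19.4 in H1792 (FPKM). After DAC it was at 10.8, 22, 19.5, 21.1, 16.1 and 8.67 FPKM. H1299 had the lowest Mock level, 3.92-fold below PC9, and after DAC the lines spanned 2.54-fold. Its log2 fold changes, 0.44, 0.04, 0.22, -0.56, -0.60 and -1.15, had the sign of the median of the 10 genes in all 6 lines.

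Summed over the 10 genes, the level was lowest in H1792 after DAC, at 147 FPKM, where 9 of the 10 genes had their lowest value of the 6 DAC libraries. H1299 in Mock was the next lowest at 256 FPKM, and CL1-5 after DAC was the highest at 449 FPKM. Of the squared deviation of the 60 log2 fold changes 86% lay between lines, 2.34% between genes, and 11.7% remained. Cell line and pair of libraries cannot be told apart here, so the share between lines may include shifts of scale or by gene length. No such share is given for other genes. The signs of the 6 line medians were all followed by AURKA, BUB1, TTK, NEK2, CDK1 and CCNB1 (6 of 10 genes), against 1.68% of the 13363 genes, and these medians are those of the 10 genes themselves. The genes that left the pattern were PLK1 and AURKB in CL1-0, BUB1B in CL1-5 and PLK4 in A549.

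Over the 5 lines of the study none of the 10 genes passed the test for a common change. With limma on log2(FPKM + 0.1), the cell line as block and Benjamini-Hochberg adjustment over 22603 genes, 0 of 10 were higher or lower at an adjusted p under 0.05, where 0.119% of all genes were higher and 0% lower. None of the 10 reached an unadjusted p of 0.05, while 8.07% of all genes did so as higher and 4.4% as lower. The lowest adjusted p by limma was 0.613, for PLK1, with a mean log2 fold change of -0.19 ± 0.16 (SE). AURKB had -0.18 ± 0.20, PLK4 0.12 ± 0.13, CDK1 0.04 ± 0.21 and CCNB1 0.01 ± 0.23. Opposite differences in single lines stood behind these means close to 0. With H1792 added, where 0.232% of all genes were called higher and 0% lower (8.92% and 2.92% unadjusted), all 10 means were below 0, from -0.05 for AURKA to -0.31 for PLK1. In that limma fit 0 of 10 passed either, with a lowest adjusted p of 0.502. These p-values measure the spread between lines, and nothing in the labels tells of separate cultures within a line.

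Partners and activators of these kinases showed the line pattern to a differing degree. TPX2, which binds and activates AURKA, had log2 fold changes of 0.52 in H1299, 0.20 in CL1-5, -0.06 in CL1-0, -0.17 in PC9, -0.47 in A549 and -1.04 in H1792. Of the passenger complex, BIRC5 (survivin) had 0.67, 0.40, -0.18, -0.20, -0.83 and -0.44 and CDCA8 (borealin) 0.38, 0.24, -0.05, -0.14, -0.45 and -1.07 in the same order of lines. INCENP, the scaffold of that complex, had 0.28, -0.15, 0.07, -0.25, 0.19 and -1.87 and thus had the sign opposite to that of AURKB in CL1-5, CL1-0 and A549. Among checkpoint partners, MAD2L1 had 0.71, 0.30, 0.18, -0.31, -0.71 and -1.27, and BUB3, which carries BUB1 and BUB1B to kinetochores, had 0.17, 0.11, -0.18, -0.37, -0.45 and -0.85.

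CCNB2, the other mitotic B-type cyclin, had log2 fold changes of 0.14, 0.14, -0.32, -0.41, -0.84 and -0.74, so that its increase in H1299 was 0.14 where CCNB1 had 0.86. CCNA2, the cyclin of S and G2 phase, had 0.32, 0.21, -0.09, -0.48, -0.56 and -1.88. CDC20, the coactivator of the anaphase promoting complex that the checkpoint inhibits, had 0.62, 0.13, -0.33, -0.91, -0.79 and -1.0. FOXM1, a transcription factor of G2/M genes, had 0.13, 0.23, -0.28, -0.17, -0.33 and -1.22, and MYBL2, which joins MuvB, had 1.27, 0.46, -0.28, -0.45, -0.70 and -1.23. Both regulators were lower in CL1-0, where 8 of the 10 genes were higher.

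MKI67, the gene of the Ki-67 antigen, was in Mock at 15.6 in H1299, 26.6 in CL1-5, 16.7 in CL1-0, 26.5 in PC9, 25 in A549 and 24.5 in H1792 (FPKM). After DAC it was at 21.8, 28.8, 16.4, 19.6, 29.6 and 7.33 FPKM, and in A549 its direction was opposite to that of 9 of the 10 genes. That direction rests on the scaling. Of MKI67 and TOP2A, 2 of 2 were higher in A549 on the common sum and after quantile normalization. After centring by gene length 0 of 2 were, at a median of -0.11. CDKN1A, which codes for the CDK inhibitor p21, was in Mock at 20.4 in H1299, 12 in CL1-5, 8.90 in CL1-0, 4.62 in PC9, 36.5 in A549 and 8.91 in H1792 (FPKM). After DAC it was at 36.9, 18.7, 9.17, 9.76, 69.95 and 22.9 FPKM, higher in 6 of 6 lines. In the fit over 5 lines CDKN1A had a log2 fold change of 0.71 ± 0.16 (SE) with an adjusted p of 0.204 by limma, and did not pass. It was higher both in H1299, where the 10 genes were higher, and in PC9, A549 and H1792, where 9 or 10 of them were lower.

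Lists of related genes were read beside the median of all genes, which was -0.03 to 0.02 in each line. Of 21 kinetochore and spindle proteins the median log2 fold changes were 0.38 in H1299, 0.12 in CL1-5, -0.01 in CL1-0, -0.38 in PC9, -0.50 in A549 and -1.01 in H1792, with 20 of 21 lower by 1.5-fold or more in H1792. Within that list SPC24 had the lowest and ECT2 the highest median over lines, -0.55 and 0.13. The 15 S phase genes had medians of 0.47, 0.42, -0.30, -0.47, -0.54 and -0.80, so that in CL1-0 the S phase genes were mostly lower (13 of 15) while 8 of the 10 mitotic genes were higher. In this list MCM7 had the lowest median over lines, -0.46, and CCNE2 the highest, 0.23. For 13 kinase partners and activators the medians were 0.49, 0.05, 0.07, -0.20, -0.31 and -1.07, with CEP152 lowest (-0.32) and KNL1 highest (0.22).

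For 14 CDK1 regulators and other cyclins the medians were 0.23, 0.19, -0.14, -0.13, -0.67 and -0.74, from CCNB2 (-0.36 over lines) to WEE1 (0.11), the kinase that holds CDK1 inactive. For 19 genes of the anaphase promoting complex and separase they were narrower, 0.15, 0.04, -0.05, -0.16, -0.31 and -0.30, from CDC20 (-0.56) to ANAPC7 (0.10). For 14 mitotic gene regulators they were 0.16, 0.19, 0.02, -0.21, -0.30 and -0.72, from MYBL2 (-0.37) to LIN54 (0.16). The 2 proliferation markers, TOP2A and MKI67, had medians over lines of -0.01 and 0.04. The 14 CDK inhibitors and p53 targets had medians of 0.09, 0.05, 0.02, 0.27, 0.00 and 0.10, with CDKN2C lowest (-0.60) and SFN highest (2.32).

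Among 12 other mitotic kinases the medians were 0.35, -0.08, -0.13, -0.17, -0.18 and -0.55, and CDK5 was lowest at -0.50. AURKC, the Aurora kinase of germ cells, had log2 fold changes of 2.42 in H1299, 1.73 in CL1-5, 0.82 in CL1-0, 3.61 in PC9, 1.52 in A549 and 1.3 in H1792 at a mean level of 1.00 FPKM, above 0 in 6 of 6 lines, unlike those of AURKA and AURKB. In the fit over 5 lines it had 2.02 ± 0.38 (SE) with an adjusted p of 0.162 by limma, and did not pass. In that fit 0 genes of any of these lists passed, and 3 of their 124 genes were higher and 6 lower at an unadjusted p under 0.05.

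**Figure D3:**
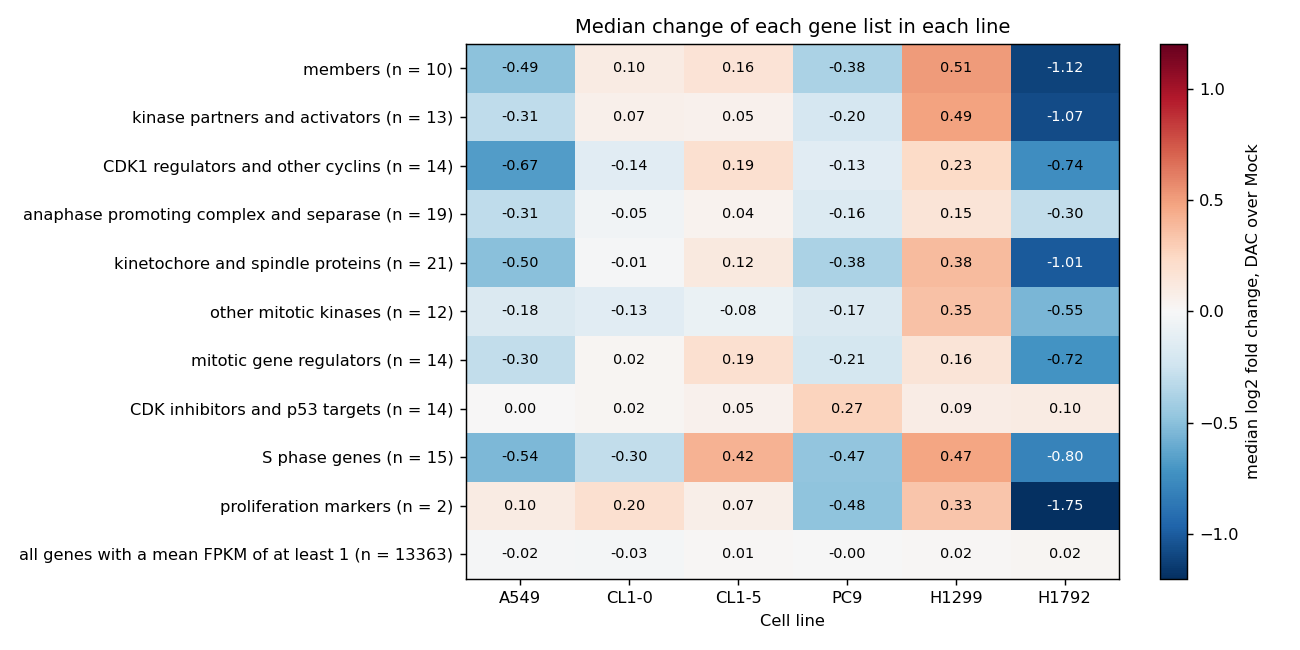
Median log2 fold change, DAC over Mock, of the 10 genes (top row), of each related list and of all genes with mean FPKM 1 or more in each line. Colours end at 1.2 in either direction, and the number of genes is beside each name. The kinetochore and partner medians have the sign of the 10 genes, except for the kinetochore list in CL1-0 (-0.01 against 0.10). CDK inhibitors and p53 targets stay between 0.00 and 0.27.

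By the correlation of the 6 log2 fold changes with the median of the 10 genes, the most alike of 12088 genes were METAP1 (Pearson r = 0.998), C5orf34, PPIG, LIN9, NCAPG, TAF5, MAD2L1, NDUFS1, COX15 and RAD54L (0.988 to 0.994). The 10 genes themselves had r of 0.886 to 0.986 with that median, of which each is a part. The alike genes differed in the size of their changes. METAP1 went from -0.53 in H1792 to 0.17 in H1299 and NDUFS1 from -0.32 to -0.04, whereas NCAPG, a condensin subunit, went from -1.33 to 0.91 and RAD54L from -1.56 to 0.61. Of all 12088 genes 297 (2.46%) had an r of at least 0.9, among them 14 of the 21 kinetochore and spindle genes and 4 of the 15 S phase genes. The most opposite were SIGIRR, PHLDA1, CERK, CSNK1E and PLD2, with r of -0.98 or lower, and SIGIRR went from 1.21 in H1792 to -0.66 in H1299. The 6 points of each correlation come from the same 12 libraries, and no test goes with them.

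The scale of the values bears on the size of these changes. FPKM summed over all genes, DAC over Mock, was 0.975 in H1299, 1.08 in CL1-5, 0.882 in CL1-0, 0.891 in PC9, 0.785 in A549 and 1.12 in H1792. Rescaled to a common sum, the median of all genes moved to 0.05, -0.09, 0.13, 0.15, 0.30 and -0.12 in the same order, and the medians of the 10 genes to 0.55, 0.05, 0.28, -0.21, -0.14 and -1.28. On that scale 3 of 10 genes were higher in A549 in place of 1, 9 in CL1-0 in place of 8, and 6 in CL1-5 in place of 9, and the counts in PC9, H1299 and H1792 did not change.

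The length of a gene also moved with its change. Over the 13363 genes the Spearman correlation of the log2 fold change with gene length was 0.32 in A549 and -0.33 in H1792, and -0.18 to 0.16 in the other 4 lines. The 10 genes are 2243 (AURKB) to 6037 bp (BUB1) long, and among them the correlation was 0.52 in A549, -0.62 in H1792, -0.58 in PC9, -0.55 in CL1-5, -0.19 in H1299 and 0.27 in CL1-0 (n = 10 genes of 1 pair of libraries). In PC9 the value over all genes was 0.04, unlike that of the 10 genes. With all genes split by length into 5 bins, their median went from -0.40 in the shortest to 0.32 in the longest bin in A549, and from 0.29 to -0.26 in H1792. Less the median of genes of the same bin, the medians of the 10 genes were 0.43 in H1299, 0.12 in CL1-5, 0.19 in CL1-0, -0.35 in PC9, -0.39 in A549 and -1.22 in H1792, so that the sign of each median was kept. The part of RNA quality in this relation was not tested.

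**Figure D4:**
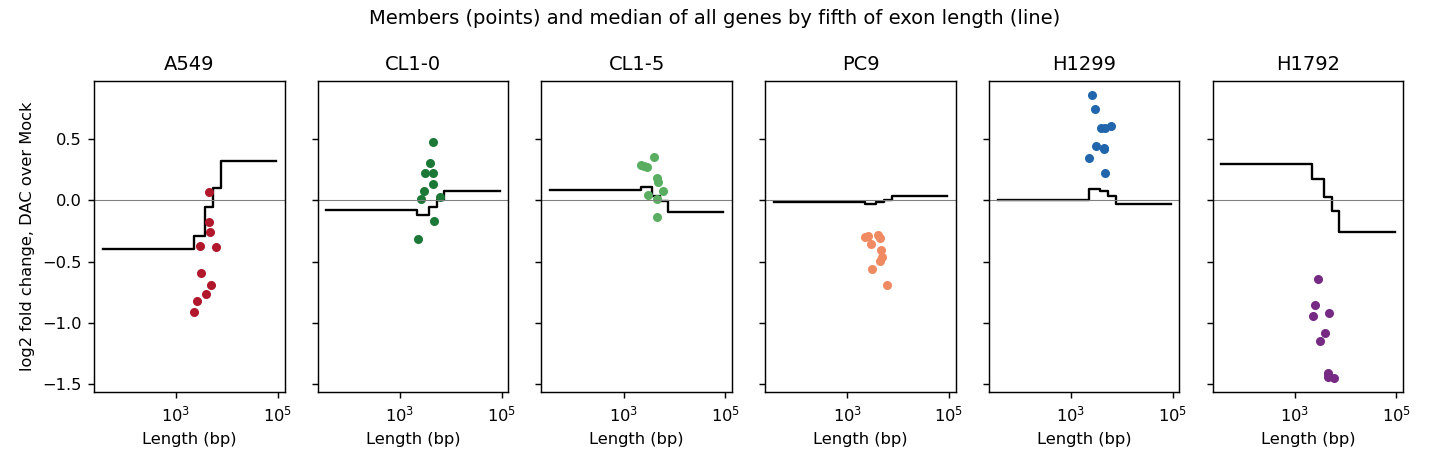
Log2 fold change, DAC over Mock, against gene length (log axis, bp) in each line. Points are the 10 genes and the black line is the median of all genes in each of 5 bins of length. In A549 and H1792 the black line slopes in opposite directions, and in PC9 and H1299 the 10 genes lie off a nearly flat line.

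The Mock ATAC libraries labelled CL1-5 and PC9 went against their labels. In mRNA 111 genes were expressed in PC9 and silent in CL1-5 (at least 5 and at most 0.05 FPKM in Mock), and of these 96.4% carried a Mock promoter peak under the label CL1-5 but 50.5% under the label PC9. Of 66 genes with the reverse mRNA pattern 57.6% and 89.4% carried one. The DAC libraries were not checked in this way. Whether Mock and DAC under each of these labels come from the same cell line was not tested, and changes under them carry this limit. No ATAC value under these labels is therefore set beside the mRNA of a line, and only the label is named. The 8 libraries held 45354 to 97584 broad peaks, more after DAC than in Mock under each label, and their read depth is unknown here.

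A peak covered the start site of each of the 10 genes in all 8 libraries, with the exception of AURKB after DAC under the label CL1-5, where the listed promoter peak lay beside the start site. For AURKA in H1299 the peak over the start site was listed under CSTF1, the neighbouring gene. Ranked by fold enrichment among 19111 genes of the same list, the peak over the start site was highest for AURKA, at a percentile of 93.5 to 99.3 over the 8 libraries. TTK (87.3 to 98.1), CDK1 (87.8 to 98.4), CCNB1 (87.6 to 97.7) and NEK2 (84.4 to 94.3) came next. PLK4 lay at 71.2 to 93.6, BUB1B at 54.2 to 84.5, PLK1 at 49.3 to 75.6, BUB1 at 33.0 to 76.8 and AURKB at 44.9 to 72.3. In A549 and H1299 Mock only CCNB1 and AURKA exceeded AURKB in mRNA. The AURKB peak had a percentile of 53.8 in A549 Mock, the lowest of the 10 genes. In H1299 Mock it had 70.7, above those of PLK1 and BUB1. Any listed promoter peak was found for 71.7% to 82.9% of the ranked genes in a library.

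The PLK1 peak (start site at 23690201 of chromosome 16) had fold enrichments in Mock and DAC of 5.60 and 6.02 in H1299, 6.29 and 7.29 in A549, 4.49 and 5.28 under the label CL1-5 and 6.25 and 5.40 under the label PC9. The rank of the promoter peak listed for PLK1 was higher after DAC in 3 of 4 lines, by a mean of 12.7 ± 11.4 percentile points (SD, n = 4 lines, exact sign-flip permutation test, two-sided, p = 0.25). CCNB1 had fold enrichments of 10.8 and 8.16 in H1299, 10.6 and 9.54 in A549, 9.32 and 6.96 under the label CL1-5 and 9.42 and 7.67 under the label PC9. Its rank was lower in 4 of 4 lines, with a mean change of -4.45 ± 1.83 points, and that of PLK4 was higher in 4 of 4, with 4.81 ± 2.16 points. Both had p = 0.13 in the exact permutation test, the smallest that 4 lines allow, so that no change of rank could pass. Ranked by summed peak width in place of fold enrichment, PLK4 was lower in 4 of 4 lines (mean change -5.56) and PLK1 lower in 3 of 4 (-4.90), so that the direction of both rests on the measure of the peak.

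BUB1 had the widest spread of rank changes, from -30.4 points under the label CL1-5 and -23.5 in A549 to 9.85 in H1299 and 13.0 under the label PC9. AURKA, TTK, CDK1, NEK2 and CCNB1 had mean changes between -4.45 and 0.36 points. For AURKA no promoter peak was listed in H1299 Mock or DAC, so its change of -2.10 there is that of genes without a peak. By the peak over the start site AURKA changed by -0.70 points in H1299 and by a mean of 0.34. Fold enrichments themselves were lower after DAC for most genes with a peak in both libraries (84.3% in H1299, 66.0% in A549, 81.7% under the label CL1-5 and 79.5% under the label PC9), and ranks within a list were compared for that reason.

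In A549, where the mRNA of 9 of the 10 genes was lower, the peak over the start site was higher in rank for 5 genes and lower for 5. In H1299, where the mRNA of all 10 was higher, it was higher for 4 and lower for 6. The 300-base promoter windows of PLK1, NEK2, CCNB1 and the downstream start of CDK1, whose letters are printed above in part, were wholly covered by peaks in 8 of 8 libraries, that of BUB1B in 7 and that of BUB1 in 6.

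**Figure D5:**
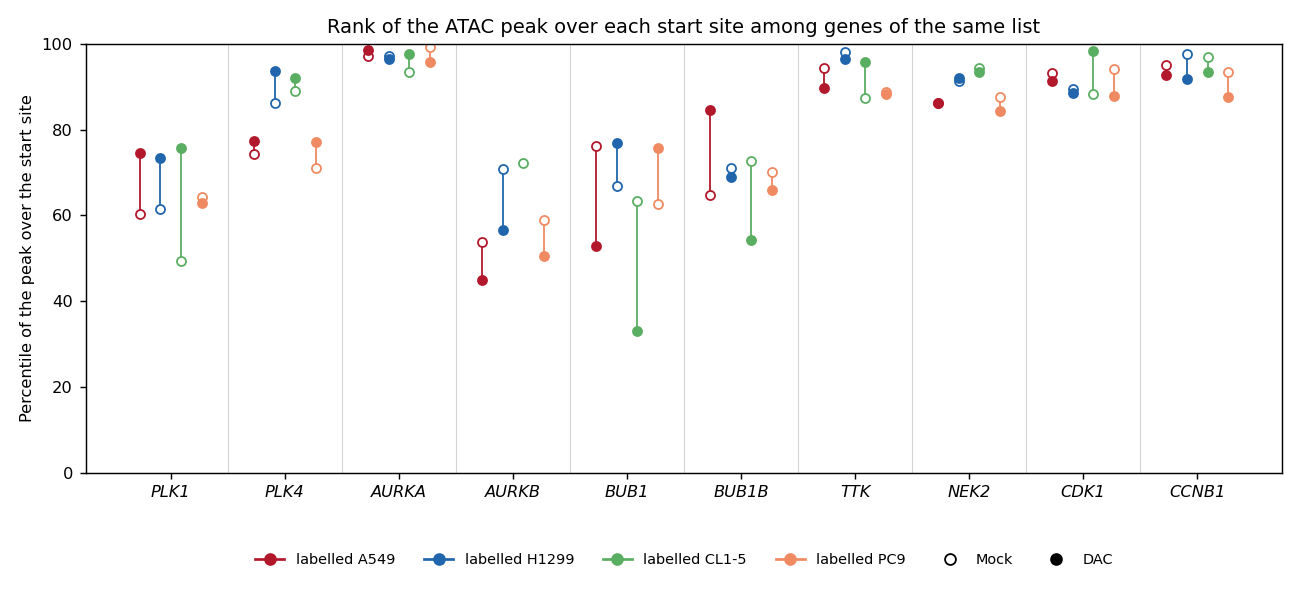
Percentile of the fold enrichment of the ATAC peak over the start site of each gene among 19111 genes of the same list, in Mock (open) and DAC (filled), with 1 vertical line per labelled cell line. AURKA, TTK, NEK2, CDK1 and CCNB1 stay above 84, and AURKB has no filled point under the label CL1-5, where no peak covers its start site.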

How the data were processed

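The deposited mRNA table holds FPKM of 12 libraries, which the authors computed with DESeq2 1.24.0 after alignment to hg19. The study's methods name RSEM with bowtie2 and the submitters' processing notes TopHat2 2.1.1, so the aligner is uncertain. Its baseMean column holds a pooled signal, the mean over libraries of counts divided by size factors, as deposited by the authors. Other columns hold the authors' own fold changes, test values and p-values and were not used. The deposited ATAC lists give, per broad peak, a fold enrichment with −log10 values of p and q, which the authors made with BWA 0.7.17-r1188, Picard 2.21.4, SAMtools 1.9 and MACS2 2.2.5 and annotated with ChIPseeker 1.20.0, 1 list per library.

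Reads were recovered from FPKM and baseMean (100% whole within 0.01). The main test was limma 3.58.1 in R 4.3.3 on log2(FPKM + 0.1) (genes averaging 0.1 FPKM or more over 10 libraries, 5 lines), with the line as block, an intensity trend and Benjamini-Hochberg adjustment at 0.05. Mock and DAC were paired by cell line, and their deviations correlated at 0.700 to 0.903 within lines and at most 0.164 between lines. Within a line, genes averaging 1 FPKM or more were compared at 1.5-fold, and 95% intervals are exact conditional ones of the reads. Promoter peaks were the strongest listed within 3000 bp of a start site, ranked within a list. The limma script was tested on simulated data. Python 3.11.15, scipy 1.17.1 and pandas 2.3.3 were used. All 10 genes were named, and of each related list the genes of lowest and highest median over lines, with further partners chosen for their known role. The genes and lists were chosen with earlier results of these data known. Alternatives changed the pseudocount, filter, scaling, block, tool, lines and peak rules.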

Additional observations from a re-analysis of the deposited data

How the results depend on the processing

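None of the 10 genes passed under any of the 16 alternatives of the fit over 5 lines. The count of all genes called, 27, became 53 with H1792 added, 10 with no replicate block, 0 with a pseudocount of 1, 2 with no filter on low values, 17 after quantile normalization, 6 with no intensity trend and 179 by limma voom on the recovered reads, and 0 to 23 when a line was left out. The replicate block, the pairing of Mock and DAC by line, thus changed that count from 10 to 27 and no call of the 10 genes.

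With H1792 added the log2 fold change over lines turned to -0.14 for PLK4, -0.049 for AURKA, -0.17 for TTK, -0.15 for CDK1 and -0.14 for CCNB1, and rescaled to a common sum to 0.051 for BUB1, 0.070 for BUB1B and 0.033 for NEK2. Leaving out a line gave -0.10 to 0.18 for AURKA, -0.31 to 0.0032 for AURKB, -0.24 to 0.083 for BUB1, -0.17 to 0.058 for BUB1B, -0.047 to 0.20 for TTK, -0.22 to 0.036 for NEK2, -0.10 to 0.24 for CDK1 and -0.21 to 0.21 for CCNB1, while PLK1 (-0.30 to -0.07) and PLK4 (0.04 to 0.22) kept their sign.

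Of the 60 values within lines, 21 passed 1.5-fold, 13 after quantile normalization and 6 at 2-fold. The median of the 10 genes moved to -0.14 (common sum) and -0.31 (quantile) in A549, to 0.28 and 0.29 in CL1-0, from 0.16 to 0.05 and 0.06 in CL1-5, and to -0.21 (common sum) in PC9.

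Ranked by summed peak width, the mean change of the promoter peak percentile turned to -4.90 for PLK1, -5.56 for PLK4, 0.695 for AURKB, 11 for BUB1 and -9.77 for CDK1. For AURKA it turned to 0.080 with a window of 1000 bp, 0.23 with q-values under 0.01, 0.55 with the same number of peaks and 0.34 for the peak over the start site. Leaving out a line gave -1.45 to 1.16 for AURKA, -8.24 to 4.55 for BUB1B, -2.33 to 2.09 for TTK and -3.04 to 2.39 for CDK1. The causes of these shifts were not tested. Centring by gene length and the peak over the start site were chosen after seeing the data. With 1 library per line and treatment, no change within a line has an error beyond counting, and the ATAC lists give no depth.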
